A study of Homo sapiens with 12 samples.

Results

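The genes described here encode the proteins of the mitochondrial ribosome. They were taken by symbol, as every gene named MRPL plus a number or MRPS plus a number (with an optional letter A, B or C) in both deposited expression tables. The rule used no measured value. It found 78 genes of 60558 listed in both tables, 49 with MRPL and 29 with MRPS symbols, and all 78 passed the filter on low counts in every comparison. The data were RNA-seq of MDA-MB-231, an established human triple-negative breast cancer line that carries mesenchymal features. There were 12 libraries in 2 experiments. In the first, cells with a knockdown of NONO, a nuclear RNA- and DNA-binding protein, were set against negative control (NC) cells. In the second, cells with a knockdown of PKM2, a splice form of the glycolytic enzyme pyruvate kinase, were set against an NC group of their own. Each group held 3 libraries, the series' design text gives siRNA as the means of knockdown, and the labels list the controls of the same line as wild type. Nothing in the labels says that the repeats were separate cultures, so every p-value measures only the spread between these libraries. Because these were bulk samples, fewer cells expressing a gene and less of its RNA per cell cannot be told apart.

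The mitochondrial ribosome is built from nuclear-encoded proteins and mitochondrially encoded ribosomal RNAs, and it makes the few hydrophobic subunits of the respiratory chain and ATP synthase that the mitochondrial genome encodes. Its large (MRPL) subunit holds the peptidyl transferase centre and the exit tunnel, and its small (MRPS) subunit decodes the mRNA. Some proteins have bacterial counterparts and others are found only in mitochondria. MRPS30 and MRPS18A, in spite of their symbols, sit in the large subunit, and MRPS36 is now placed in the oxoglutarate dehydrogenase complex and not in the ribosome.

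The libraries held between 19861762 and 28455268 estimated counts. Counts are given as CPM, scaled to library size with TMM factors, and levels between genes as TPM, scaled to library size and transcript length. The target RNA was low in each knockdown, with NONO at 373 in its controls and 62.7 CPM after NONO knockdown, and PKM, the gene that gives rise to PKM2, at 2270 in its controls and 227 CPM after PKM2 knockdown. The cell line's markers were as labelled, with VIM at 3291 to 4466 TPM in every library, the others (EGFR, CD44, AXL and CAV1) at 50.7 TPM or more, and the luminal, epithelial and other-lineage markers ESR1, PGR, CDH1, PTPRC, CD3E, CD79A, HBB, ALB and KRT5 under the count filter. GATA3 and FOXA1 were detected at no more than 4.37 TPM and PECAM1 at no more than 2.31 TPM. In the PKM2 experiment the log2 fold change fell with GC content across 15332 genes (Spearman's rho −0.16), and the members' median GC content was 47.7% against 48.0% over all genes tested. The log2 fold change also fell slightly with gene length across 15524 genes (rho −0.07). The members were shorter, with a median length of 1334.5 bases against 2876.5 over all genes tested.

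The promoters of these genes were searched for short motifs, as a description only. Whether a motif bears on the response to either knockdown was not tested. RefSeq promoter windows on GRCh38.p14, from 250 bases before to 50 bases after the annotated start, were matched by symbol for 69 of the 78 genes. MRPL2, MRPL10, MRPL13, MRPL15, MRPL21, MRPL23, MRPL35, MRPS28 and MRPS36 had no entry. The 3 core motifs searched, on both strands and without mismatch, were AAGATGGCG (YY1), CCGGAAGT (ETS factors, among them GABPA) and GCGCATGCG (NRF1). None of the 3 contains another. Each member had 1 window, whereas another gene could have more than 1, and the other genes tested are those of the PKM2 comparison. The YY1 letters stood in 13 of the 69 windows (18.8%), against 3.22% of the windows of the other genes tested and 1.75% of all 35116 windows. For the ETS letters the shares were 15.9% of members, 7.21% of other genes tested and 4.14% of all windows, and for the NRF1 letters 4.35%, 3.05% and 1.92%. At least 1 of the 3 motifs was present in 34.8% of the members' windows and in 12.6% of those of the other genes tested. It was present in 17 of the 43 members that rose after PKM2 knockdown, in 2 of the 7 that fell and in 5 of the 19 that were not called. In 10 of the 13 windows the YY1 letters began after the start, between base 7 and base 36. These letters contain ATG, and whether a match lies on a start codon was not tested.

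The following stretches reach from 40 bases before to 25 bases after the start. They are shown because the YY1 letters, in capitals, stand at nearly the same place in genes that rose after PKM2 knockdown (MRPS30, MRPS18A and MRPL46) and in genes that were not called (MRPS10, MRPL38 and MRPL42). They lie at chr5:44808907-44808971 (plus strand), chr6:43687767-43687831 (minus), chr15:88467364-88467428 (minus), chr6:42217837-42217901 (minus), chr17:75904860-75904924 (minus) and chr12:93467474-93467538 (plus).
MRPS30: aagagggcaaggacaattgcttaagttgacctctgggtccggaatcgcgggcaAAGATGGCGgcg
MRPS18A: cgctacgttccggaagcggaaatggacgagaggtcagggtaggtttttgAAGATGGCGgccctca
MRPL46: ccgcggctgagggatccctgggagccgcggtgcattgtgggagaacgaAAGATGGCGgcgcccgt
MRPS10: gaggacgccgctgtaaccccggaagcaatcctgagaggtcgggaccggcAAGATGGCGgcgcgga
MRPL38: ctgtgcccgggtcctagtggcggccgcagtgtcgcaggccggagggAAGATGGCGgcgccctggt
MRPL42: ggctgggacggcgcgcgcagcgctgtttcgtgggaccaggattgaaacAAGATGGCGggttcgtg

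The next set gives the 200 bases before the start for the genes with the largest rises (MRPL36 and MRPL45) and the largest fall (MRPL37) after PKM2 knockdown, and for 3 genes that show the motifs upstream. Capitals mark the YY1 letters in MRPL36 (on the opposite strand) and MRPL52, the NRF1 letters in MRPL17, where matches on both strands overlap, and the ETS letters in MRPL20. In MRPL52 the ETS letters also stand across the start itself, which lies beyond the stretch shown. The windows of MRPL45 and MRPL37 hold none of the 3 motifs. The positions are chr5:1799838-1800037 (minus strand), chr17:38296968-38297167 (plus), chr14:22829687-22829886 (plus), chr11:6683341-6683540 (minus), chr1:1407294-1407493 (minus) and chr1:54199967-54200166 (plus).
MRPL36: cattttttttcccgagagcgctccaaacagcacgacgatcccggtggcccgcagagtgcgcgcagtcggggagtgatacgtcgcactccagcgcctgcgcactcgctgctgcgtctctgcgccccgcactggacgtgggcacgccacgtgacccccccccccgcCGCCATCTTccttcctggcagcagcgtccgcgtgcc
MRPL45: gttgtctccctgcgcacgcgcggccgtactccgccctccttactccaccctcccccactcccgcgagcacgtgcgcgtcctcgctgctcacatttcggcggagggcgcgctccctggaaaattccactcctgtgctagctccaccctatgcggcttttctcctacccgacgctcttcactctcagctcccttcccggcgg
MRPL52: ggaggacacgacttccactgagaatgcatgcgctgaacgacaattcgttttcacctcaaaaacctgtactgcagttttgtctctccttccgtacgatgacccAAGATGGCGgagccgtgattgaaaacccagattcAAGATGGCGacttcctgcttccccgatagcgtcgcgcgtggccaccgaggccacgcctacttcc
MRPL17: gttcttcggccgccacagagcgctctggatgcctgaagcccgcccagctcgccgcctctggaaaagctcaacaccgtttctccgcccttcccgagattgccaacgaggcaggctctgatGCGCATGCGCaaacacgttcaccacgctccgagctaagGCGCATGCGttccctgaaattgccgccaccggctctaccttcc
MRPL20: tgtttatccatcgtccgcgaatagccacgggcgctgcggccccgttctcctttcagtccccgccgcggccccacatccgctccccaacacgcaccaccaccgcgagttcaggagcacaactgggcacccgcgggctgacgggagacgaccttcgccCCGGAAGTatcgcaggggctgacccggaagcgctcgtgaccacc
MRPL37: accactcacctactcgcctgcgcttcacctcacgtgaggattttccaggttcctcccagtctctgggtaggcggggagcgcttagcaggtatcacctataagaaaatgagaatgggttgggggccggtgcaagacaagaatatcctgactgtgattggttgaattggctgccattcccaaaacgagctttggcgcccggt

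All 78 genes were expressed in the control cells. Their mean level over the 6 NC libraries, in TPM and therefore per transcript length, ran from 17.8 to 304, a 17.1-fold range, with a median of 80.4. Of the 78, 18 lay below 50 TPM, 49 between 50 and 150 and 11 above 150. The highest was MRPS24, the counterpart of bacterial S3 at the mRNA entry, at 297 ± 15.8 TPM (SD, n = 3) in the NONO experiment's controls and 312 ± 9.66 in the PKM2 experiment's controls. MRPL41 (221 ± 6.33 and 212 ± 6.22), MRPL33 (202 ± 5.62 and 210.2 ± 7.39) and MRPL12 (199.5 ± 6.45 and 199 ± 7.95) followed. Over the 6 NC libraries the range of MRPS24 lay above theirs, and neighbours among the others overlapped. MRPL14 and MRPL34 came next, at means of 174 and 171 TPM. The lowest were MRPS17 (17.8 TPM), MRPL50 (19.1), MRPL40 (22.4), MRPS14 (22.8), MRPS21 (22.9) and MRPL44 (28.0), and over these libraries the range of each overlapped with that of the next. The tables of the 2 experiments were normalised separately, and between their NC groups 74 genes' TPM ratio lay within 1.5-fold. The exceptions were MRPS36 (26.2 ± 3.71 against 48.9 ± 0.953 TPM), MRPS11 (36.6 ± 2.98 against 64.9 ± 2.00), MRPL38 (69.7 ± 2.20 against 104.9 ± 6.62) and MRPS28 (58.0 ± 9.71 against 31.3 ± 4.54), whose levels should not be set side by side across tables. MRPL38 was the only member whose listed gene length differed between the tables, at 1888 bases (NONO table) against 1358 (PKM2 table). Its mean control CPM, which does not use length, was 67.6 against 66.4 in the same order. How far the listed length accounts for its TPM ratio was not tested. The smallest estimated count of any member in any library was 198 (MRPS28) and the largest 5780 (MRPS27).

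The summed TPM of the 78 genes measured how much of the transcript pool they took up. In the NONO experiment the sum was 7128, 6728 and 6679 in the NC libraries and 6602, 6747 and 6758 after knockdown, so that the groups overlapped. The log2 ratio was −0.03 (two-sided exact permutation test, p = 0.6), and it was 0.03 when CPM was summed in place of TPM. In the PKM2 experiment the sum was 7067, 7105 and 7128 in the NC libraries and 8462, 8414 and 8946 after knockdown. Every knockdown library was above every control, at 121% of the control mean (log2 ratio 0.28, exact permutation p = 0.1, the smallest that 3 against 3 libraries allow). The level after knockdown was 118% of the control mean over the 49 MRPL genes and 128% over the 29 MRPS genes. The 76 annotated pseudogenes of these families summed to between 10.9 and 30.0 TPM in each library.

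After PKM2 knockdown most of these genes rose. By edgeR's quasi-likelihood test, with an adjusted p below 0.05, 47 of the 78 (60.3%) were higher and 8 (10.3%) lower, with 23 not called. Over all 15524 genes tested in that comparison 33.6% were higher and 34.7% lower. The members' median log2 fold change was 0.29, against −0.01 over all genes, and 61 of the 78 values were positive. The changes were mostly small. The study's cutoff asks for more than a 2-fold change and a p below 0.05 before adjustment. By it 2 members (2.56%) were higher and 0 lower with edgeR, against 7.05% and 13.8% of all genes. DESeq2 also gave 2 and 0 members at the cutoff. Without the fold condition 49 were higher and 9 lower (51 and 7 by DESeq2). The share of all genes at that looser threshold is not given here, so these 2 pairs of counts cannot be set against it. With the length trend alone taken out the counts were 46 higher and 12 lower with a median of 0.25. With the GC and length trend taken out, an alternative added after the data were seen, the counts were 47 higher and 13 lower with a median of 0.23. With limma on log2(TPM + 1) the median was 0.19.

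MRPL36 and MRPL45 changed most. MRPL36, a small zinc-binding protein of the large subunit, stood at 32.1, 33.8 and 36.6 CPM in the controls and at 82.5, 80.5 and 96.0 once PKM2 was knocked down (log2 fold change 1.34 ± 0.08, SE; edgeR adjusted p = 3.1e-08). MRPL45, which lies by the exit of the nascent chain and helps to hold the ribosome at the inner membrane, rose from 62.7, 59.8 and 58.2 CPM to 147, 153 and 156 (1.34 ± 0.05, adjusted p = 1.3e-09). In both genes the groups were far apart. Its pseudogene MRPL45P2 also had higher TPM after PKM2 knockdown (13.8 to 15.9) than in the controls (6.06 to 7.86), and whether reads were shared between the pair was not tested.

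The next largest rises spread over both subunits. MRPS27, a pentatricopeptide repeat protein of the small subunit, had the tightest values, with 117, 116 and 117 CPM in the controls and 228, 229 and 229 after knockdown (0.97 ± 0.04, adjusted p = 3.6e-09). MRPS24 rose from 104, 95.0 and 104 CPM to 173, 177 and 213 (0.89 ± 0.08). MRPL58, a peptidyl-tRNA hydrolase that became a structural protein of the large subunit, rose from 31.7, 29.9 and 32.5 CPM to 53.2, 54.5 and 60.7 (0.84 ± 0.07). MRPL52, which is specific to mitochondria, rose from 60.9, 60.8 and 60.8 CPM to 105, 103 and 122 (0.86 ± 0.07). In each of these 4 genes the groups did not overlap. The share of all genes whose groups did not overlap is not given here. Genes named for their large changes tend to separate in this way, so the separation, here and below, is description only. In MRPS24, MRPL58 and MRPL52 the third knockdown library was the highest, as it was in TPM for 51 of the 78 genes. The counts of that library stood apart from those of the other PKM2 knockdown libraries (chi-square per degree of freedom 12.3 and 10.5, against 3.34 between those). MRPS24 shares 23.2% of its exon bases with the read-through gene URGCP-MRPS24, and the strand setting of the counting is not given in the sources used here.

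The stalk of the large subunit, which recruits translation factors, is formed by MRPL10, MRPL11 and MRPL12. MRPL10, its base, rose from 41.2, 43.5 and 42.1 CPM to 72.0, 74.5 and 83.2 after PKM2 knockdown (0.86 ± 0.06, adjusted p = 2.6e-07). MRPL12, which also has a reported role with the mitochondrial RNA polymerase, rose from 107, 112 and 114 CPM to 176, 192 and 217 (0.81 ± 0.07, adjusted p = 8.9e-07). MRPL11 was not called, with overlapping groups at 69.7, 62.9 and 68.7 CPM against 62.7, 62.1 and 70.8 (−0.04 ± 0.07). The annotation places 68.2% of the exon bases of MRPL12 within another gene on the same strand, AC139530.2.

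By structural part, the counts can be read against the 60.3% of all members and 33.6% of all genes that were higher after PKM2 knockdown. Around the exit tunnel, 6 of 7 genes rose and the other was not called. Besides MRPL45 these included MRPL44, which has an RNase III-like fold, with a log2 fold change of 0.59 ± 0.07, and MRPL39, with 0.40 ± 0.07. In the central protuberance, the part of the large subunit that contacts the small subunit, 4 of 7 rose and the others were not called. The largest rise was that of MRPL46, with 0.80 ± 0.08. MRPS30, also placed there, rose from 90.4, 88.1 and 84.9 CPM to 110, 113 and 114 (0.36 ± 0.05), and the groups did not overlap. Of 5 proteins around the decoding site and the mRNA path 3 rose, among them MRPS12 (0.38 ± 0.08), the counterpart of the bacterial protein in which streptomycin resistance arises, and MRPS35 (0.33 ± 0.06).

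The 3 paralogues of bacterial S18 all rose. MRPS18B went from 74.8, 78.2 and 77.5 CPM to 132, 129 and 150 (0.84 ± 0.06), MRPS18C from 31.1, 32.7 and 29.3 to 45.7, 45.9 and 53.2 (0.64 ± 0.07) and MRPS18A from 33.3, 33.4 and 35.7 to 51.0, 48.1 and 54.3 (0.58 ± 0.06). None of these groups overlapped with its controls. Their summed level was 155% of the control mean. MRPS18A shares 47.0% of its exon bases with RSPH9 and MRPS18C 40.2% with ABRAXAS1, each on the opposite strand.

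By origin, the 30 large-subunit genes with bacterial counterparts gave 16 higher and 4 lower after PKM2 knockdown, with a median log2 fold change of 0.27. The 21 mitochondria-specific large-subunit genes gave 14 higher and 2 lower (median 0.28), the 16 small-subunit genes with bacterial counterparts 9 higher and 1 lower (0.29), and the 10 mitochondria-specific small-subunit genes 8 higher and 2 not called (0.65). MRPS18A (large subunit) and MRPS18B (small subunit) were counted here as mitochondria-specific, although they are paralogues of bacterial S18. MRPS36 was left out of these classes. Differences between these classes were not tested.

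**Figure D1:**
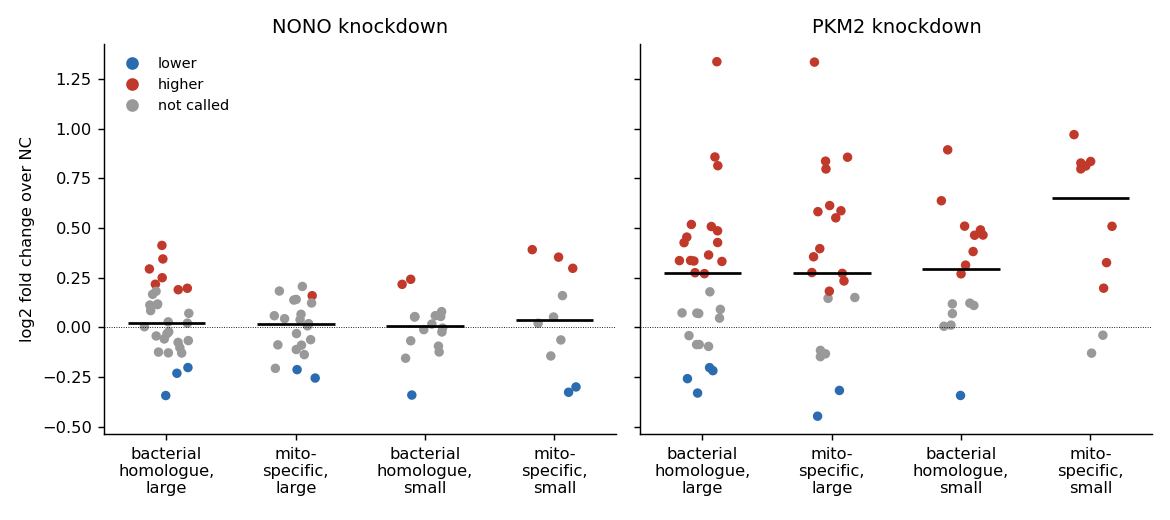
Log2 fold change (knockdown over NC, edgeR) of each gene but MRPS36 by subunit and origin, after NONO knockdown on the left and PKM2 knockdown on the right. MRPS18A and MRPS18B stand with the mitochondria-specific genes. Each point is 1 gene, coloured by its call at an adjusted p below 0.05, and the bars are class medians, which run from 0.27 to 0.65 after PKM2 knockdown and from 0.01 to 0.04 after NONO knockdown.

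The 8 genes that fell after PKM2 knockdown were MRPL37, MRPS21, MRPL20, MRPL49, MRPS36, MRPL19, MRPL30 and MRPL32. MRPL37, a mitochondria-specific protein, had the largest fall, from 91.9, 91.5 and 90.4 CPM to 61.2, 66.0 and 73.5 (−0.45 ± 0.07, adjusted p = 7.3e-05). MRPS21, a small-subunit protein with a bacterial counterpart, went from 18.9, 18.0 and 19.7 CPM to 14.5, 14.3 and 15.8 (−0.34 ± 0.08). MRPL20, which binds the large ribosomal RNA, went from 44.9, 41.0 and 39.4 CPM to 30.7, 31.7 and 37.1 (−0.33 ± 0.08). The groups did not overlap in these 3 genes, and the third knockdown library lay nearest to the controls in each. MRPL49 (−0.32 ± 0.06), MRPL19 (−0.26 ± 0.05) and MRPL30 (−0.22 ± 0.05) fell with groups that did not overlap. MRPL32, whose maturation by a mitochondrial protease is needed for ribosome assembly, had overlapping groups, at 45.6, 44.4 and 41.0 CPM against 36.6, 34.2 and 43.0 (−0.20 ± 0.08, adjusted p = 0.047), and it kept its call in 2 of the 6 fits that left out a library. Without the third PKM2 knockdown library, 12 genes were called lower and 46 higher, with a median of 0.23. The share of all genes called in that fit is not given here.

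**Figure D2:**
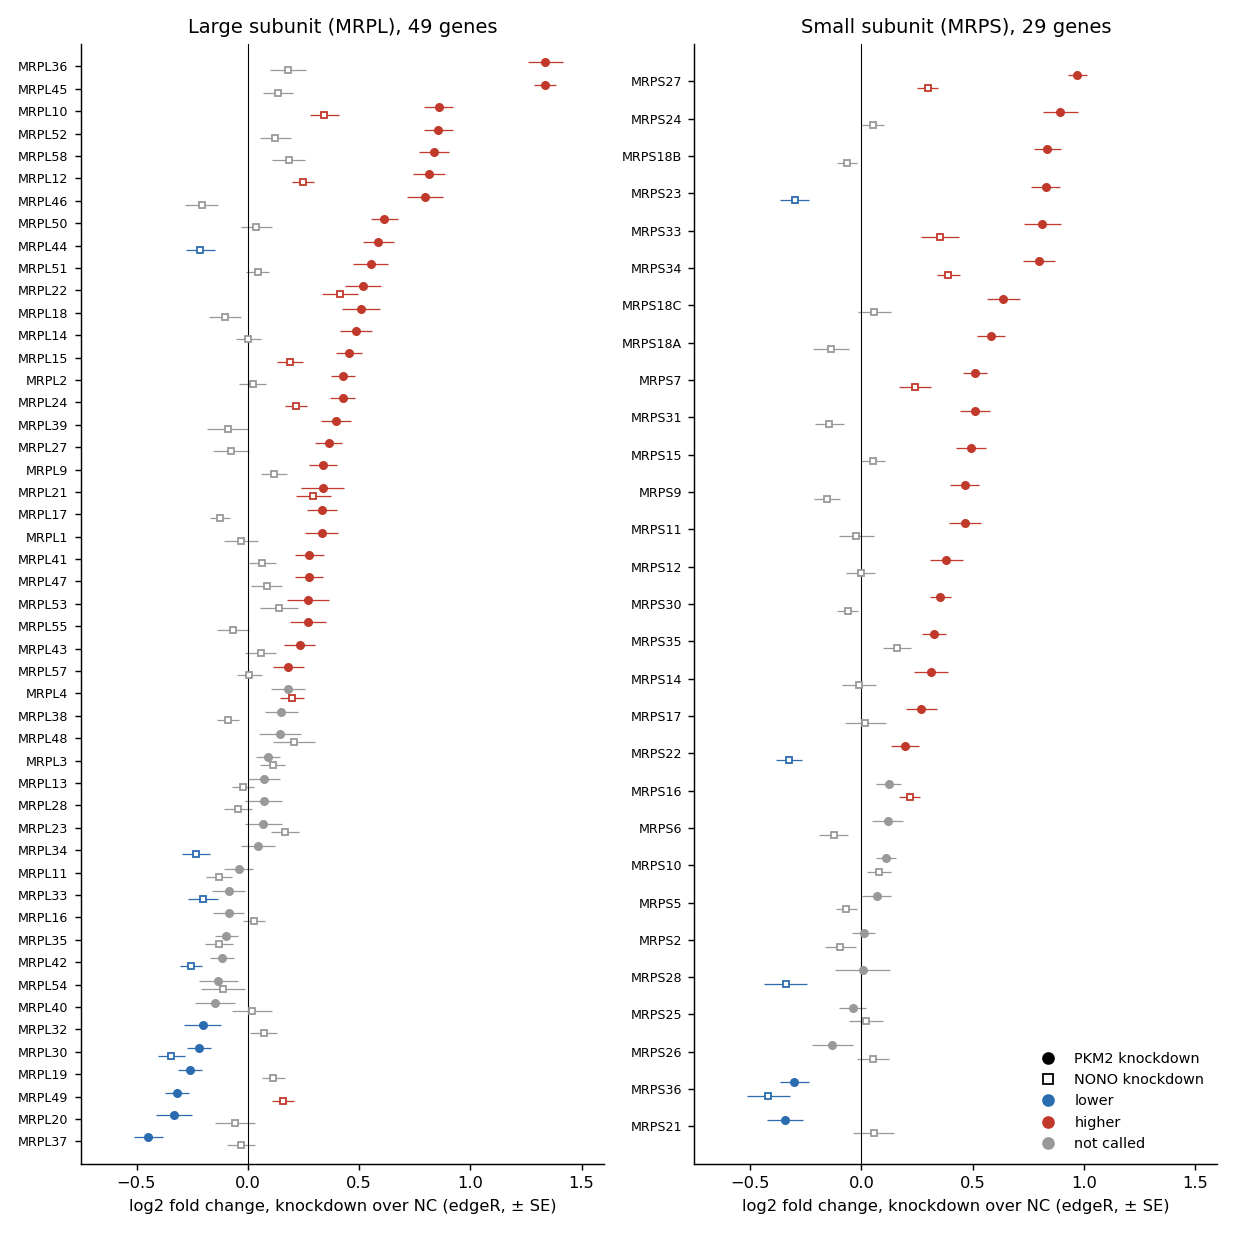
Log2 fold change with its SE for each of the 78 genes after PKM2 knockdown (filled circles) and NONO knockdown (open squares), ordered by the PKM2 value within each panel and coloured by call. The panels follow the symbols MRPL and MRPS. MRPS30 and MRPS18A, of the large subunit, and MRPS36, not of the ribosome, therefore stand in the panel titled small subunit. Most filled circles lie to the right of 0, with MRPL36 and MRPL45 at 1.34 and MRPL37 at −0.45, and the open squares lie between −0.42 and 0.41.

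After NONO knockdown the same genes moved little and in both directions. By edgeR's test 13 of the 78 (16.7%) were higher and 9 (11.5%) lower, with 56 not called, against 16.2% higher and 17.2% lower of all 14832 genes tested. The median log2 fold change was 0.02, against −0.01 over all genes, and the values ran from −0.42 to 0.41. At the study's cutoff 0 members were higher and 0 lower with edgeR, against 0.789% and 2.16% of all genes. DESeq2 also gave 0 and 0 members at the cutoff. Without the fold condition 18 were higher and 12 lower (14 and 8 by DESeq2), again without a share of all genes to set them against. The split depended on the scale and on single libraries. On log2(TPM + 1) with limma 3 were higher and 12 lower, where the median of all genes was itself −0.05, and with replicate 1 of the NONO experiment's controls left out 24 were higher and 8 lower. There were 8 higher without replicate 3 of the controls and also 8 without replicate 3 of the knockdown, and 5 lower without replicate 1 of the knockdown. The shares of all genes called in these fits are not given here, so the shifts may not be particular to the members. The first control library had the highest TPM of its group in 49 of the 78 genes, and its counts stood apart from the other control libraries (chi-square per degree of freedom 10.2 and 8.29, against 2.47 between those).

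The largest rises after NONO knockdown were those of MRPL22, MRPS34 and MRPS33. MRPL22, a protein of the exit tunnel, went from 16.8, 16.2 and 15.1 CPM to 20.2, 22.2 and 21.6 (0.41 ± 0.08, adjusted p = 0.0025). MRPS34, which is specific to mitochondria, went from 67.4, 62.6 and 65.6 CPM to 83.3, 88.6 and 84.7 (0.39 ± 0.05, adjusted p = 0.00015) and was the rise called in all 16 fits. MRPS33 went from 12.1, 12.2 and 12.1 CPM to 15.8, 15.2 and 15.6 (0.35 ± 0.08, adjusted p = 0.0077). Their groups did not overlap. MRPL10 (0.34 ± 0.07), MRPS27 (0.30 ± 0.05), MRPL21 (0.29 ± 0.08), MRPL12 (0.25 ± 0.05) and MRPS7 (0.24 ± 0.07) rose less, and MRPL22, MRPS33, MRPL10, MRPL21 and MRPS7 were not called on log2(TPM + 1). In the 6 fits that left out a library MRPS7 was called in 1 and MRPL21 in 4.

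The largest fall after NONO knockdown was that of MRPS36, the 2-oxoglutarate dehydrogenase subunit, from 18.0, 16.97 and 20.6 CPM to 13.1, 13.9 and 14.6 (−0.42 ± 0.10, adjusted p = 0.0065). MRPL30 went from 79.1, 68.4 and 73.9 CPM to 56.2, 57.8 and 60.5 (−0.34 ± 0.06, adjusted p = 0.0013). MRPS22, a mitochondria-specific small-subunit protein in which variants cause a childhood mitochondrial disease, went from 84.5, 76.2 and 73.5 CPM to 61.2, 62.8 and 62.7 (−0.33 ± 0.06, adjusted p = 0.0013). The groups did not overlap in these 3 genes. MRPS28 fell as far but with a larger error (−0.34 ± 0.10), and MRPS23 (−0.30 ± 0.06), MRPL42 (−0.26 ± 0.05), MRPL34 (−0.23 ± 0.06), MRPL44 (−0.21 ± 0.06) and MRPL33 (−0.20 ± 0.07) fell less. MRPS28 was called in 3 of the 6 fits that left out a library, MRPL34 in 5, MRPL44 in 1 and MRPL33 in 0.

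The 2 experiments share no libraries, so their values can be set side by side. Of the 13 genes higher after NONO knockdown, 10 (76.9%) were also higher after PKM2 knockdown, which is 21.3% of the 47 higher there. Over all genes tested in both, 56.9% of those higher after NONO knockdown were also higher after PKM2 knockdown, and 60.3% of all members were higher after PKM2 knockdown. The shared members were MRPL10, MRPL12, MRPL15, MRPL21, MRPL22, MRPL24, MRPS7, MRPS27, MRPS33 and MRPS34. MRPL30 and MRPS36 were lower after both, 2 of the 9 (22.2%) lower after NONO knockdown and 2 of the 8 (25%) lower after PKM2 knockdown. Over all genes tested in both, these shares were 56.7% and 27.7%, and 10.3% of all members were lower after PKM2 knockdown. Across the 78 genes the log2 fold changes of the 2 knockdowns had a Spearman's rho of 0.31, and across all 14525 genes tested in both it was 0.30.

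**Figure D3:**
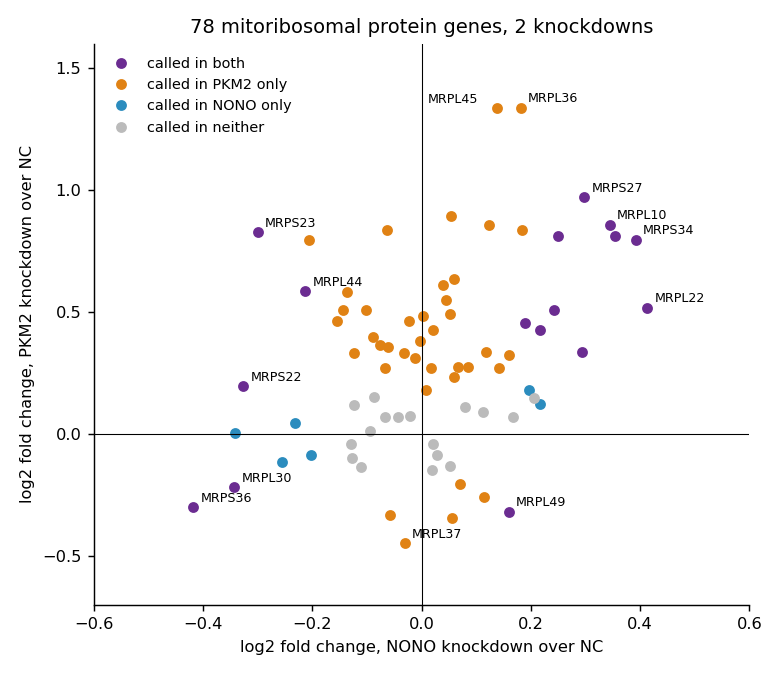
Log2 fold change after NONO knockdown (x axis) against that after PKM2 knockdown (y axis) for the 78 genes, coloured by the knockdowns in which each was called. The vertical spread is wider than the horizontal. MRPS23, MRPL44 and MRPS22 (upper left) and MRPL49 (lower right) were called in opposite directions. MRPL44 and MRPL49 after NONO knockdown and MRPS22 after PKM2 knockdown lost that call under some alternatives. MRPS23 after NONO knockdown kept its call in 15 of 16 fits.

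The difference between the knockdowns was tested as an interaction over all 12 libraries. The PKM2 value was more positive than the NONO value in 38 of the 78 genes (48.7%) and more negative in 5 (6.41%), against 25.7% and 27.4% of the 15995 genes tested. The 6 smallest p-values belonged to MRPL45, with a difference of 1.19 ± 0.09 on the log2 scale (SE; edgeR adjusted p = 7.9e-09), MRPS23 (1.11 ± 0.09), MRPS18B (0.89 ± 0.08), MRPS27 (0.66 ± 0.07), MRPL36 (1.14 ± 0.12) and MRPL46 (0.99 ± 0.11). The 5 genes with the more negative value after PKM2 knockdown were MRPL19, MRPL32, MRPL37, MRPL49 and MRPS21, and without the third PKM2 knockdown library there were 8.

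In 4 genes the calls went in opposite directions, and in each of them 1 of the calls was lost under at least 1 alternative. MRPS23, a small-subunit protein found only in mitochondria, fell from 48.3, 44.5 and 45.7 CPM to 35.6, 40.02 and 36.9 after NONO knockdown and rose from 56.3, 53.4 and 57.9 to 96.8, 93.4 and 107 after PKM2 knockdown (0.83 ± 0.06). MRPL44 fell from 30.3, 30.2 and 29.9 CPM to 26.3, 26.6 and 25.1 and rose from 29.5, 27.6 and 28.6 to 41.7, 40.6 and 46.6, a difference of 0.79 ± 0.09 on the log2 scale. MRPS22 fell as given above and rose from 79.2, 71.2 and 76.2 CPM to 84.3, 82.6 and 93.0 (0.20 ± 0.06), a difference of 0.51 ± 0.09. In none of these did a knockdown group overlap with its own controls. MRPL49 did the reverse, from 75.03, 72.8 and 70.6 CPM to 77.8, 82.1 and 84.0 after NONO knockdown (0.16 ± 0.05) and from 70.4, 67.4 and 68.8 to 52.5, 56.2 and 57.1 after PKM2 knockdown, with a difference of −0.49 ± 0.07. After NONO knockdown MRPL44 was called in 8 of the 16 fits and in 1 of the 6 that left out a library, and MRPL49 in 8 of 16 and 2 of 6. The rise of MRPS22 after PKM2 knockdown was called in 11 of 16 fits. MRPS23 was called in 15 of 16 fits after NONO knockdown and in all 16 after PKM2 knockdown.

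**Figure D4:**
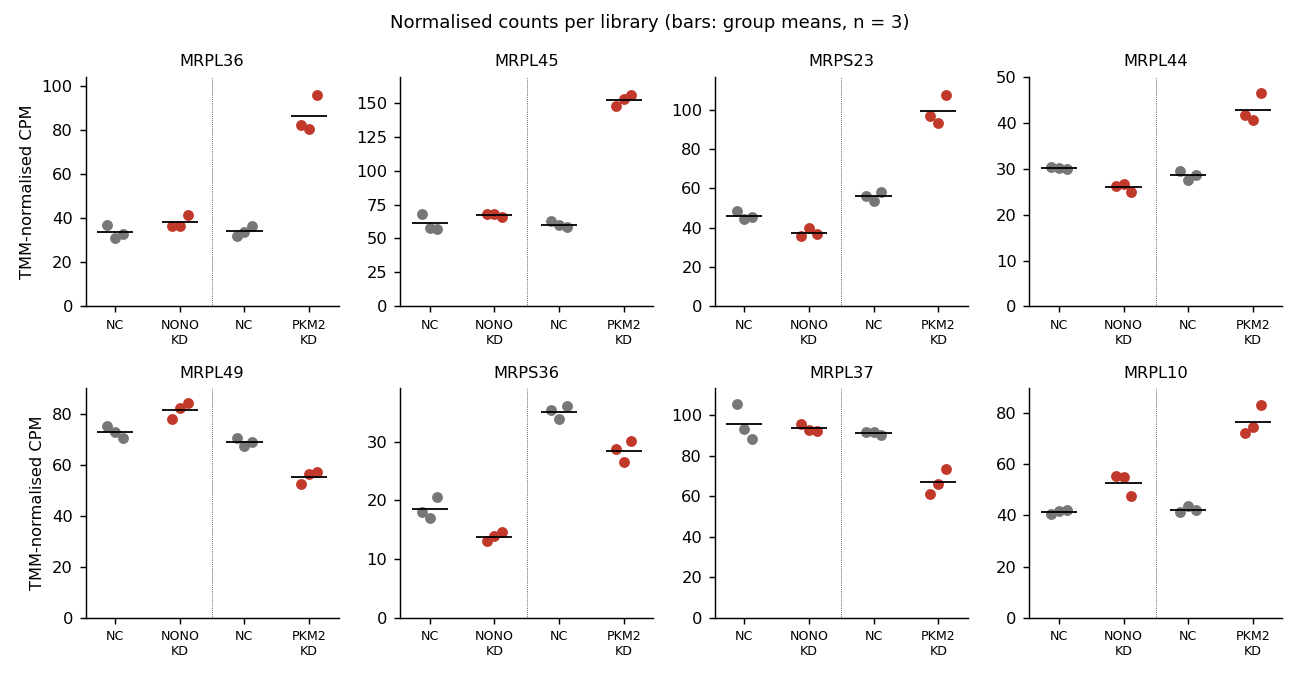
TMM-normalised CPM per library (points) and group means (bars, n = 3) of 8 genes, with the NONO experiment left and the PKM2 experiment right of the dotted line in each panel. MRPL36 and MRPL45 separate only after PKM2 knockdown, MRPS23 and MRPL44 go down in one experiment and up in the other, and MRPS36 goes down in both from control levels that differ between the tables.

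Other genes of mitochondrial translation were counted in lists of their own. Over all genes 33.6% were higher and 34.7% lower after PKM2 knockdown, and 16.2% and 17.2% after NONO knockdown. Of 5 mitoribosome proteins with other symbols, 4 rose after PKM2 knockdown. GADD45GIP1 rose by 0.85 ± 0.08 on the log2 scale, CHCHD1 by 0.37 ± 0.09, AURKAIP1 by 0.28 ± 0.07 and DAP3 by 0.24 ± 0.05, while PTCD3, a pentatricopeptide repeat protein, was not called (−0.02 ± 0.04). After NONO knockdown PTCD3 alone of the 5 was called (0.33 ± 0.04). Of 27 genes of ribosome assembly and rRNA modification 15 rose and 5 fell after PKM2 knockdown, and 3 rose and 2 fell after NONO knockdown, the latter both below the shares over all genes. RCC1L, an assembly factor of the mitoribosome, rose in both (1.56 ± 0.06 and 0.58 ± 0.07), MPV17L2, which is also needed for assembly, fell in both (−0.90 ± 0.07 and −0.69 ± 0.08), and MRM1, an rRNA methyltransferase, fell by 1.06 on the log2 scale after PKM2 knockdown. Of 15 translation factors 11 rose and 1 fell after PKM2 knockdown, led by GUF1 (0.96 ± 0.06) and MTIF3 (0.84 ± 0.08), and 6 rose and 1 fell after NONO knockdown, led by MTIF3 (0.35 ± 0.10) and LRPPRC (0.31 ± 0.05).

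Of 13 genes of mitochondrial transcription and its nuclear regulators 6 rose and 1 fell after PKM2 knockdown, and 3 rose and 4 fell after NONO knockdown. TFAM, which packages mitochondrial DNA and starts its transcription, fell after NONO knockdown (−0.47 ± 0.06) and rose after PKM2 knockdown (0.38 ± 0.04). YY1 fell by 0.14 on the log2 scale after NONO knockdown and rose by 0.53 ± 0.04 after PKM2 knockdown, and GABPA rose in both (0.45 ± 0.06 and 0.62 ± 0.07). Whether any of these bear on the ribosomal protein genes was not tested.

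The RNAs that the mitochondrial ribosome is built on and reads are encoded in the mitochondrial genome. Of the 13 mitochondrially encoded mRNAs 8 fell and 2 rose after PKM2 knockdown, and 1 fell and 3 rose after NONO knockdown. MT-CO1, a core subunit of cytochrome c oxidase, went from 9543 to 5206 CPM after PKM2 knockdown (−0.87 ± 0.04) and from 12047 to 13723 after NONO knockdown (0.19 ± 0.05). MT-ATP8 fell by 0.60 on the log2 scale after PKM2 knockdown, and MT-CYB fell by 0.22 there and rose by 0.15 after NONO knockdown. The small-subunit rRNA MT-RNR1 went from 1155 to 3069 CPM after PKM2 knockdown (1.41 ± 0.05) and from 1176 to 837 after NONO knockdown (−0.49 ± 0.04), and the large-subunit rRNA MT-RNR2 rose by 0.18 ± 0.04 after PKM2 knockdown and was not called after NONO knockdown (−0.11 ± 0.08). The libraries were made from poly(A)-selected RNA, so the rRNA values count only what that selection kept.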

How the data were processed

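The libraries were made from poly(A)-selected RNA with a TruSeq kit and sequenced as paired reads. For each gene and library the authors deposited an estimated count and a TPM value, in 1 table per experiment. The submitters' processing notes name fastp, HISAT2, StringTie, RSEM, DESeq2, edgeR and limma and the build hg19, without roles or versions. The counting's strand setting is not given in the sources used here. The tables also hold the authors' own group means, fold changes and p-values, which were not used. They give no coordinates, and exon overlaps were read from GENCODE 29 and promoters from RefSeq (GRCh38.p14). Exon bases were shared with another gene on the opposite strand by 29 members and on the same strand by 16, not all of them given above. Among the genes that fell, MRPS28 shared 35.8% with AC036214.3, MRPL33 21.05% with BABAM2 and MRPL30 19.5% with AC079447.1, each on the same strand. MRPL49 shared 11.6% with SYVN1 on the opposite strand.

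Estimated counts were rounded, filtered with filterByExpr, scaled by TMM and tested with edgeR 4.0.16 (quasi-likelihood, R 4.3.3) on all genes, per experiment with 3 libraries a group and jointly for the interaction. P-values were adjusted by Benjamini-Hochberg over all genes tested, and calls used an adjusted p below 0.05. Standard errors were derived from the F statistic. Levels between genes were compared in TPM, which the authors had normalised by length and library. Summed TPM was compared by an exact permutation test of log2 sums, two-sided, in which 3 against 3 libraries cannot give a p below 0.1. The steps were tested on simulated data in which 200 genes were changed 4-fold, more than any member changed here. How well changes as small as those of most members are recovered was not tested. Depth was 19861762 to 20981712 counts per library in the NONO experiment and 24097948 to 28455268 in the PKM2 experiment.

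The members and gene lists were chosen with earlier results of these data known. Named members were the 8 largest called falls and rises per knockdown, the 6 highest and 6 lowest control levels, the 6 smallest interaction p-values, and a set chosen for structural position. From other lists the 2 largest changes per knockdown were named, and all mitoribosome proteins with other symbols. MRPL33 after NONO knockdown, the genes listed by call, the genes without a promoter entry, the genes with motifs and the cell markers fall outside that rule and were named after their values were seen.

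Alternatives were DESeq2 1.42.0, DESeq2's size factors, no filter, a replicate block, the length trend taken out and each library left out. The study's fold cutoff was a further alternative within each experiment. Limma 3.58.1 was run on log2(TPM + 1), with and without a filter at a mean of 1 TPM, and on log2(TPM + 0.1) with the filter. For the interaction, limma was run only on log2(TPM + 1) with the filter. A fit with the GC and length trend taken out (20 bins each) was added after the data were seen.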

Additional observations from a re-analysis of the deposited data

Results flagged for a closer look

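By the interaction test in edgeR, with an adjusted p below 0.05, the effects of the 2 knockdowns differed in 43 of the 78 genes. Of the members 38 (48.7%) were more positive and 5 (6.41%) more negative after PKM2 knockdown, against 25.7% and 27.4% of all 15995 genes tested. Differences were thus common over all genes too, and the members departed from them in direction. On the log2 scale the PKM2 value minus the NONO value was 1.19 for MRPL45, 1.14 for MRPL36, 1.11 for MRPS23, 0.99 for MRPL46, 0.89 for MRPS18B, 0.79 for MRPL44, 0.66 for MRPS27 and 0.51 for MRPS22. It was −0.49 for MRPL49, −0.43 for MRPL37, −0.41 for MRPS21, −0.39 for MRPL19 and −0.29 for MRPL32. MRPS23, MRPL44 and MRPS22 were called lower after NONO knockdown and higher after PKM2 knockdown, and MRPL49 the other way round. The NONO calls of MRPL44 and MRPL49 held in 1 and 2 of the 6 fits that left out a library. Of all 16 fits, the PKM2 call of MRPS22 held in 11 and the NONO call of MRPS23 in 15.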

How the results depend on the processing

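After PKM2 knockdown the number of members called higher lay between 39 and 52 under every alternative but the fold cutoff, under which it was 2, and 0 members were lower. With the GC and length trend taken out 13 were lower in place of 8, and with the length trend alone taken out 12 were. The shares of all genes called were not set beside the counts of the alternative fits, here or below. The median log2 fold change was 0.19 with limma on TPM, with either pseudocount and with or without the filter, where the median of all genes was as low as −0.10 (TPM + 0.1), and it lay between 0.23 and 0.35 in fits without a library.

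After NONO knockdown 3 members were higher with limma on log2(TPM + 1) or log2(TPM + 0.1), in place of 13. On log2(TPM + 1) without the filter 1 was higher. The medians of these 3 fits were −0.029, −0.030 and −0.029. Under the fold cutoff 0 were higher and 0 lower. Fits that left out a library gave 5 to 8 lower and 8 to 24 higher, with medians from −0.0012 to 0.065. The summed level, at −0.03 in TPM, turned to 0.034 in summed CPM, and its range without a library was −0.047 to −0.0003. The cause of these shifts was not tested.

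For the difference between knockdowns, 8 members were more negative with the length trend taken out, in place of 5, and 4 to 8 without a library. The log2 ratio of summed TPM lay between 0.25 and 0.29 after PKM2 knockdown without a library. The fits with a replicate block gave 48 higher and 8 lower after PKM2 knockdown, 11 and 7 after NONO knockdown, and 36 more positive and 4 more negative differences. The numbers mark no shared origin in the labels, and same-numbered libraries correlated by −0.07 to 0.04. Of 37 named members called after PKM2 knockdown 30 kept their call in every fit, and of 18 after NONO knockdown 4 did. No named member reversed in a called direction. At this depth (198 counts at the least) the median SE of a member was 0.064 after NONO and 0.068 after PKM2 knockdown, against median absolute log2 changes of 0.116 and 0.331.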
